A study of Mus musculus with 10 samples.

Results

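The cells described here were cochlear cells of old mice that carried transcripts of the eotaxin gene Ccl11, the sodium channel gene Scn7a and genes measured with them. A cell was a member where at least 3 of Ccl11, Scn7a, Lmntd1, Ranbp3l, Aldh1a2 and Cldn11 had a unique molecular identifier (UMI), the tag that counts a transcript once. It also had a UMI in fewer than 3 of the barrier fibroblast markers Slc47a1, Slc4a10, Igfbp6, Foxd1 and Sfrp4, and in fewer than 3 of the hair cell markers Myo6, Myo7a, Pou4f3, Tmc1, Kncn and Gfi1. This rule took 488 of the 7272 kept cochlear cells, and 17696 cells were kept from both organs. The members were thus chosen from measured values, so the rule's genes and every contrast of members with other cochlear cells are descriptions without a test.

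The series holds single-cell RNA sequencing of the mouse inner ear, and the libraries analysed here were of wild-type CBA/J mice aged 22 months, an inbred strain whose hearing declines late in life. Whole cochleae or whole vestibular organs of 7 to 8 mice of both sexes were pooled for each library, so a library is a pool and not an animal. The organs were dissected, dissociated with collagenase and captured as droplets with 3′ chemistry, which counts transcript ends, so that levels are not scaled to gene length. There were 5 libraries of each organ, no transgene and no treatment, and young mice were not analysed here.

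Eotaxin is a secreted chemokine that draws eosinophils through the receptor Ccr3, and fibroblasts are a common source of it in many tissues. Scn7a encodes Nax, an atypical sodium channel that senses extracellular sodium in the brain and is also found in glia and mesenchymal cells. Aldh1a2 makes retinoic acid from retinaldehyde and marks fibroblasts of the meninges, while Cldn11 encodes a claudin that seals the sheets of barrier layers such as the basal cells of the stria vascularis. In the cochlea, fibroblasts and the specialised fibrocytes of the spiral ligament and limbus hold the matrix together and recycle potassium, and Coch, Otor and Otos are the usual genes of fibrocytes.

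Replicate 2 of each organ repeated replicate 1. In the cochlea it held 1313 barcodes, each also present in replicate 1, and the counts of the pair agreed within sampling noise. It was left out, so that n was 4 libraries per organ. Between the remaining pairs at most 41 barcodes were shared, none of them of members (0 cells). The cochlear libraries 1, 3, 4 and 5 held 2738036, 26974948, 5349308 and 5452292 UMIs and gave 571, 5070, 695 and 936 kept cells. Library 3 supplied 69.9% of the members. Members had a median of 1800.5 UMIs per cell, against 2174 over all kept cochlear cells, and doublets were not removed.

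Members were found in every cochlear library, at shares that differed between libraries. They numbered 20 in library 1, 341 in library 3, 34 in library 4 and 93 in library 5. These were 3.50% of the kept cells of library 1 (95% exact binomial interval 2.15 to 5.36), 6.73% of library 3 (6.05 to 7.45), 4.89% of library 4 (3.41 to 6.77) and 9.94% of library 5 (8.09 to 12.03). The mean was 6.26% ± 2.78 (SD, n = 4). Library 5 had the highest share and its interval did not meet those of the others. The same rule took 132 of 10424 kept cells of the vestibule, or 2.19%, 1.14%, 0.899% and 1.74% of libraries 1, 3, 4 and 5 (1.49% ± 0.584, SD, n = 4), and every cochlear share was above every vestibular one. The rule had been made on the cochlear libraries, and the intervals cover counting error only.

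**Figure D1:**
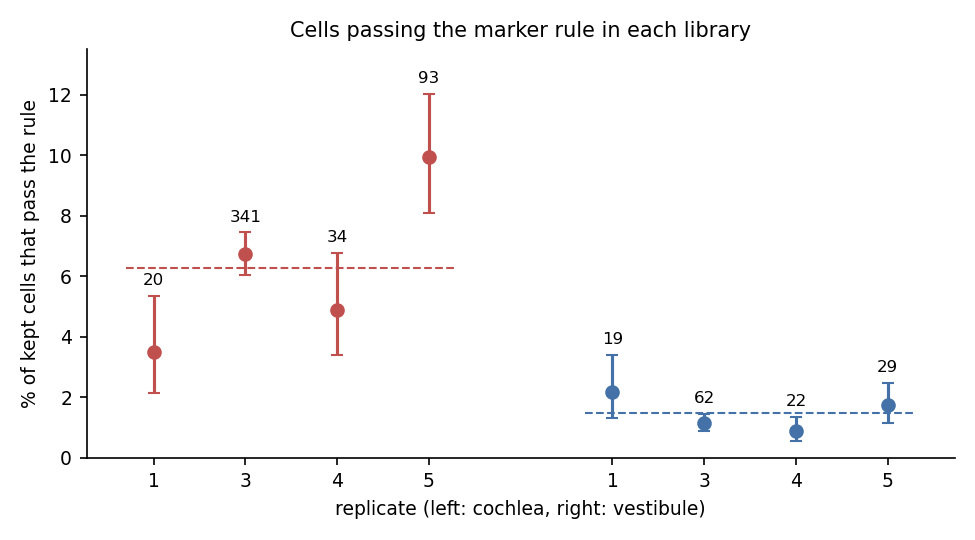
Share of kept cells that passed the marker rule (vertical axis, percent) in replicates 1, 3, 4 and 5 of the cochlea (red) and the vestibule (blue), with 95% exact binomial intervals as bars, the number of cells above each and the mean of 4 libraries as a dashed line. The cochlear shares run from 3.50% to 9.94% and the vestibular shares from 0.899% to 2.19%.

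The genes of the rule were carried unequally. Levels are counts per 1000000 UMIs (CPM) of a cell, averaged over the members of a library. Ccl11 (ENSMUSG00000020676, chr11:82057823-82062955, GRCm38) was the most abundant, at 1509, 1455, 937 and 2223 CPM in libraries 1, 3, 4 and 5 (1531 ± 529, SD, n = 4). It was lowest in library 4 and highest in library 5, and its mean was 24.5 times that of all other kept cochlear cells. Cldn11 (chr3:31149920-31164324) stood at 1420, 828, 462 and 887 CPM, with library 1 highest and library 4 lowest, 17.0 times the other cells.

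Scn7a (chr2:66673425-66784914) stood at 1022, 584, 514 and 561 CPM, so that library 1 was apart and the other 3 lay close together. Its mean of 670 ± 236 CPM was 59.95 times that of the other cells, the largest fold of any gene in at least 25% of members. Aldh1a2 (chr9:71215789-71296243) had 666, 477, 397 and 436 CPM, and Ranbp3l (chr15:8967949-9067335), a nuclear export factor for Smad proteins, had 676, 385, 308 and 400 CPM. In both genes library 1 was highest and library 4 lowest. Lmntd1 (chr6:145365134-145614319), named for its lamin tail domain, had the lowest mean of the 6, at 286 ± 54.2 CPM.

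No rule gene was in every member: a UMI of Cldn11 was in 81.6% of members, of Ccl11 in 80.7%, of Aldh1a2 in 64.5%, of Scn7a in 60.7%, of Ranbp3l in 46.7% and of Lmntd1 in 44.3%. With each cell thinned to 1000 UMIs, Ccl11 was in 61.7% of members and 0.570% of the 351 macrophage-like cells, and Scn7a in 42.4% and 0.285%. Macrophage-like cells, which should lack both genes, had the higher median depth, 2410 UMIs. The share in macrophage-like cells was read as the background from free RNA. Cells that also passed the members' rule were left out of that class, so this background can be too low. Among the members, 8 had 3 or more macrophage markers.

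Of the members, 235 carried 3 of the 6 markers, 144 carried 4, 88 carried 5 and 21 carried all 6. Just outside the rule lay 328 cochlear cells with 2 markers, which had 829 CPM of Ccl11, 249 of Scn7a and 4879 of Dcn. Just inside, the 235 cells with 3 markers had 1407, 450 and 7076 CPM of the same genes.

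In the cochlea 1722 of 2695 Ccl11 UMIs of kept cells, or 63.9%, lay in members, as did 74.1% of those of Scn7a and 62.6% of those of Aldh1a2. Fibrocyte-like cells, chosen by 3 or more of Otos, Coch, Car3, Otor, Pou3f4 and Tbx18, held 249 Ccl11 UMIs among 942 cells, and 11.3% of them had one. Of 116 stromal cells chosen by 2 or more of 5 markers that include Dmp1 and Ogn, 24.1% had one. The eotaxin receptor gene Ccr3 had 3 UMIs in all kept cochlear cells and 0 in members, too few to describe.

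Of the 6 fibroblast markers Dcn and Pdgfra were in most members and the other 4, all but Lum collagen genes, were not. Dcn, which encodes the small proteoglycan decorin, stood at 7144, 7845, 7409 and 8387 CPM, close together in all libraries, and was in 91.8% of members. Its mean of 7697 ± 544 CPM was 16.2 times that of other cells, 5.45 times that of the 115 barrier-like cells, chosen by 3 or more of the barrier markers, which only libraries 1 and 3 held, and 2.44 times that of the 116 Dmp1 Ogn stromal cells, which had 3160 CPM. Pdgfra, the platelet-derived growth factor receptor of fibroblasts, was in 61.1% of members at 497 ± 129 CPM, and the collagen gene Col1a2 in 49.2% at 419 ± 93.1 CPM. Col3a1 was in 15.4% and the proteoglycan gene Lum in 8.81%, while Col1a1, a chain of collagen I, was in 0.205% of members. In all, 184 of 488 members had a UMI in 3 or more of these 6 fibroblast markers.

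Markers of other cell types varied. The rule itself limited those of barrier and hair cells, so their low levels describe the rule: Slc47a1 was in 0.410% of members, and Tmc1, Kncn and Gfi1 were at 0, while Myo6 was at 351 CPM. In lists that the rule did not use, Acta2 and Myh11 of the 6 mural markers and Bglap and Phex of the 5 stromal markers were at 0. The mural markers summed to a mean of 41.0 CPM in members against 93.6 CPM in other cells. The stromal markers went the other way, at 759 CPM against 275 CPM, and Ogn made up most of it at 754 CPM. The 6 fibrocyte markers summed to 1605, 1816, 7290 and 1290 CPM in libraries 1, 3, 4 and 5, against a mean of 3941 CPM in other cells. Library 4 was thus apart from the others and above the other cells. Otos was the most abundant of these markers, at a mean of 1367 CPM over the libraries. In the largest group of members, described below, it was at 429 CPM with a UMI in 24.9% of cells. Tbx18, also among them, was above the other cells, as given below with the transcription factors. The 6 glial markers, led by Pmp22, summed to 198, 612, 281 and 281 CPM against 555 CPM in other cells, highest in library 3, and 24 members had 3 or more of them. The 5 red blood cell markers summed to 987, 2205, 30.2 and 258 CPM against 14812 CPM. The 5 macrophage markers summed to 1.68, 53.0, 3.06 and 24.8 CPM in libraries 1, 3, 4 and 5, against a mean of 588 CPM in other cells.

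Among the 6 endothelial markers Emcn and Flt1 were abundant. Emcn, the endomucin of vessel walls, was in 62.9% of members at 773 ± 91.2 CPM, and the vascular endothelial growth factor receptor gene Flt1 in 35.9% at 267 ± 58.2 CPM. The summed level of the 6 endothelial markers was 984, 1032, 1340 and 1197 CPM in libraries 1, 3, 4 and 5, against 522 CPM in other cells, and Emcn and Flt1 made up most of it. Just 3 of the 6 were in at least 5% of members, Cldn5 and Vwf were near 0, and 28 members carried 3 or more of the 6. In all, 51 members (10.5%) had 3 or more markers of another of 6 types, and 102 members (20.9%) had 3 or more fibrocyte markers. Whether doublets or free RNA put these markers there was not tested.

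**Figure D2:**
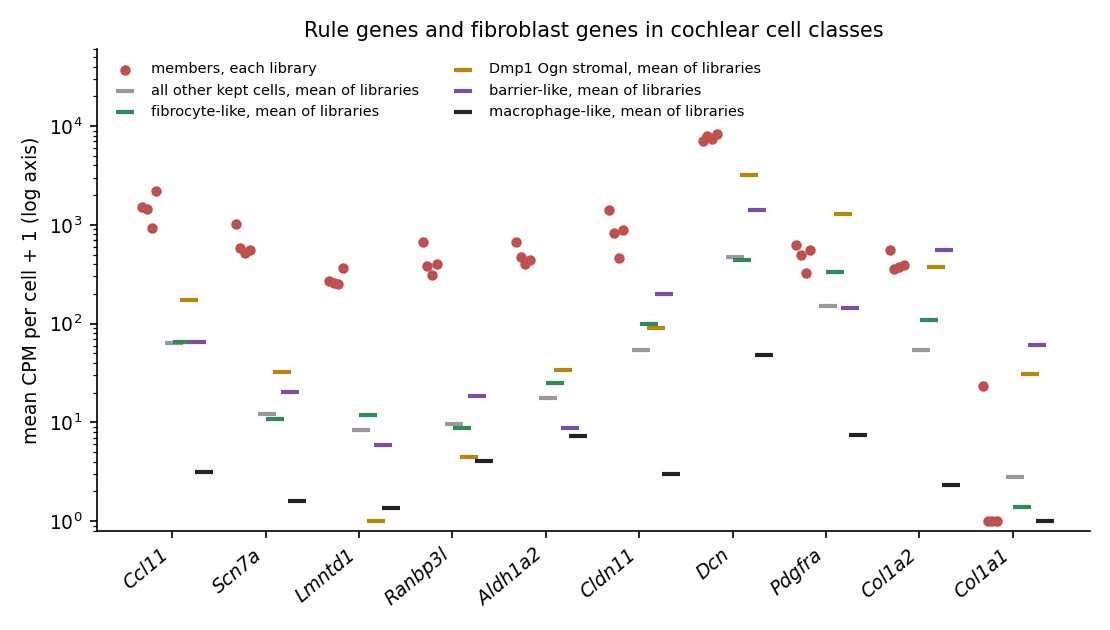
Mean CPM per cell plus 1 (log axis) of the 6 rule genes and 4 fibroblast genes, with a red point for the members of each of the 4 cochlear libraries and a coloured bar for the mean of each other cell class. Dcn in members lies between 7144 and 8387 CPM in the 4 libraries, while Col1a1 is near the bottom of the axis.

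Depth divided the members. The 53 cells with over 10000 UMIs were 10.9% of members and held 62.5% of the 2458891 member UMIs. Ccl11 was at 1740, 1712 and 1980 CPM in members of 1000 to 1500, over 1500 to 2500 and over 2500 to 5000 UMIs, at 793 CPM in those of over 5000 to 10000, and at 233 CPM in the deepest 53. Over the same steps Scn7a went from 772 to 38.4 CPM and Dcn from 9407 to 1122 CPM. Coch, the cochlin gene of fibrocytes, went the other way, from 180 CPM in the shallowest to 2872 CPM in the deepest. The share of cells with 3 or more fibrocyte markers was 7.59%, 11.96%, 16%, 55.6% and 86.8% over the 5 steps, so levels summed over all UMIs of a library weigh these cells most. A deep cell can also pass a rule on detected markers at a lower level of each.

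Clustering of the members gave 3 groups, described here by their leading genes. The largest, of 421 cells or 86.3% of members, was led by Ccl11, Scn7a, Dcn and Aldh1a1 and had a median of 1679 UMIs. In it Ccl11 stood at 1803 CPM, Scn7a at 683 and Dcn at 9035. The libraries 1, 3, 4 and 5 gave it 16, 294, 24 and 87 cells, most of the members of each.

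A group of 44 cells was led by Otor, Coch, Anks1b and Fos, and its median was 29758 UMIs. All 44 had 3 or more fibrocyte markers, and their Ccl11 was at 56.7 CPM, Scn7a at 5.57 and Dcn at 124. Coch was at 3655 CPM and Otor, which encodes the secreted protein otoraplin, at 3217 CPM. The data thus went against the eotaxin fibroblast name for these cells, which are called here the Otor Coch cells. Library 3 gave 31 of them, library 4 gave 8, library 5 gave 4 and library 1 gave 1.

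The remaining 23 cells were led by Ptgds, Rnase1 and Gjb2. They had 53948 CPM of Ptgds, the prostaglandin D synthase gene, 5609 of Otos and 895 of Gjb2, a gap junction gene of the cochlear potassium route. Ccl11 was at 157 CPM in them, Scn7a at 60.4 and Dcn at 1772, and their median was 7128 UMIs. Ranbp3l went the other way, at 695 CPM in the 23 cells against 416 CPM in the 421. Both small groups were thus low in Ccl11 and Scn7a, and the contrast of the organs below is also given for cells of at most 10000 UMIs. That limit removed 39 of the 44 Otor Coch cells but only 9 of the 23 cells led by Ptgds, so it does not set the latter apart.

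**Figure D3:**
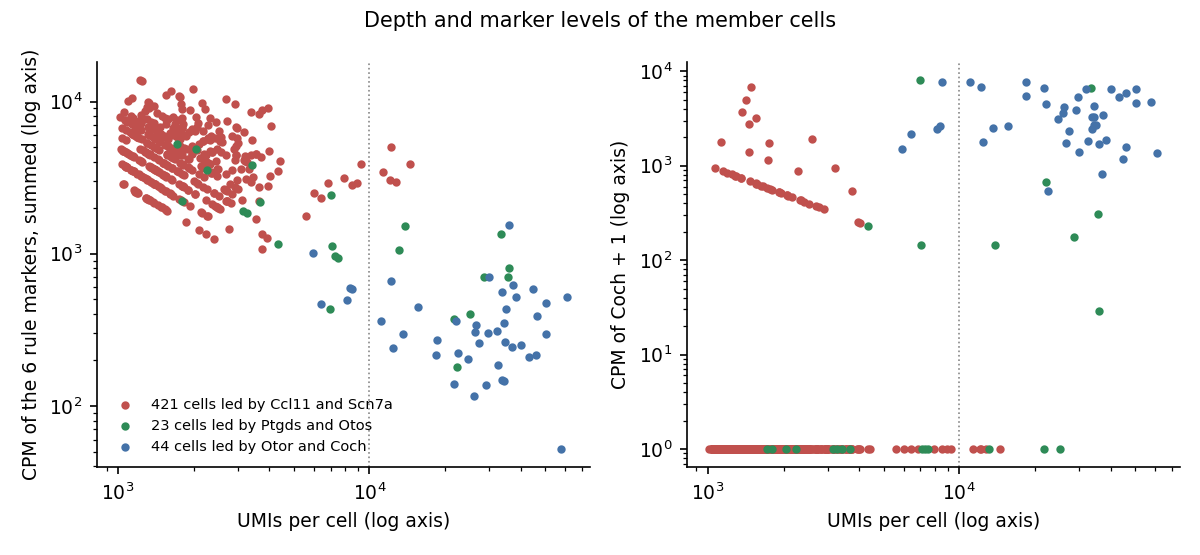
UMIs per cell (horizontal log axis) against the summed CPM of the 6 rule markers (left) and CPM of Coch plus 1 (right) for each of the 488 members, coloured by group, with 10000 UMIs as a dotted line. The 44 Otor Coch cells lie at high depth with low marker levels and high Coch, and the 421 cells led by Ccl11 and Scn7a lie mostly below 10000 UMIs.

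The most abundant genes of members with a known product other than ribosomal and mitochondrial ones were Ptn, Apod, Apoe and Dcn. Ptn encodes pleiotrophin, a heparin-binding growth factor, and stood at 17007, 16091, 14847 and 18717 CPM in libraries 1, 3, 4 and 5. Its mean was 5.05 times that of other cells, and fibrocyte-like cells had it too, at 10859 CPM. Apod, the gene of a lipid-carrying protein of nerve sheaths and fibroblasts, was in every member at 15431 ± 3367 CPM, 6.37 times the other cells. Its presence did not set members apart. A UMI of Apod was also in 99.1% of the 328 cochlear cells with 2 markers, at 9918 CPM. It was in 41.6% of macrophage-like cells too, the class read above as background from free RNA. The members of the 4 libraries were alike in Ptn, whose libraries spread by an SD of 1629 CPM.

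Beside the rule genes, the 20 genes with the largest fold over other cells included Aard, Unc13c, Adgrd1, Aldh1a1, Met, Nrxn3, Flt1, Ifitm1, Gfra4, Wnt6, Tex15 and Grb10. Met, the receptor of hepatocyte growth factor, was at 823, 551, 452 and 822 CPM, 11.3 times the other cells, and in every library it was above their mean of 58.6 CPM. Ifitm1, an interferon-induced membrane protein gene, was at 2026, 1997, 1994 and 1666 CPM, 10.2 times the others, with library 5 somewhat lower. Aldh1a1, a second retinaldehyde dehydrogenase gene, was at 697, 459, 406 and 653 CPM and 12.3 times the others. As the members were chosen by other genes of the same cells, these folds describe the cells and test nothing.

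Lists of genes by role were read against all 8540 genes found in at least 5% of members. The chemokine, retinoid, sodium channel and junction lists each hold a rule gene, whose place on the higher side the rule itself set. Of these, 20.2% were higher in members than in other cells in all 4 libraries and 16.6% were lower in all 4. Matrix genes were mostly on the higher side. Of 20 genes of proteoglycans and other matrix proteins 16 were higher and 1 lower, of 14 collagen genes 8 were higher and 0 lower, and of 14 genes of proteases and their inhibitors 11 were higher and 0 lower. Dcn led the first list, followed by Sparcl1 at 1707 ± 105 CPM and the elastic fibre gene Efemp1 at 1294 ± 283 CPM. Timp3, an inhibitor of matrix metalloproteinases, was at 2227 ± 814 CPM and 7.22 times the other cells.

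Signalling genes of fibroblasts followed. Of 8 chemokine and cytokine genes 5 were higher and 0 lower, and after Ccl11 came the alarmin gene Il33 at 249, 108, 64.2 and 158 CPM. Il33 was lowest in library 4, as Ccl11 was, and members held 15.9% of the cochlear Il33 UMIs. Cxcl12, the ligand of Cxcr4, was not raised, at 0.979 times the other cells. Of 7 receptor genes 4 were higher, led by Lifr, the receptor of leukemia inhibitory factor, at 675, 541, 460 and 567 CPM. A UMI of Lifr was in 60.0% of members, 56.0% of Dmp1 Ogn stromal cells and 47.3% of fibrocyte-like cells. Barrier-like and macrophage-like cells had one in 22.6% and 17.7%, and members held 21.7% of its cochlear UMIs.

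Of 16 genes of the retinoid pathway 8 were higher and 2 lower. Rarres2, which encodes the secreted protein chemerin, was at 573 ± 120 CPM, close to Aldh1a1 and within 1 SD of Aldh1a2. The retinoic acid-degrading enzyme gene Cyp26b1 was at 28.0 ± 7.01 CPM, 6.404 times the other cells but in few members (7.58%). Of 10 genes of sodium channels and the sodium pump 5 were higher and 4 lower. After Scn7a came Atp1b3, a subunit of the pump, at 394 ± 38.7 CPM, and Fxyd1, a regulator of the pump, at 344 ± 74.6 CPM, 2.96 times the other cells.

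Of 12 solute carrier and ABC transporter genes 9 were higher and 2 lower. Slc1a3, a glutamate transporter, was in 92.8% of members at 1853, 1699, 1425 and 2620 CPM. In barrier-like cells it was at 16.6 CPM, while the barrier transporter gene Slc4a10 was at 1304 CPM there and, limited by the rule, in 0.205% of members. Among 15 junction genes 5 were higher and 5 lower, with Tjp1, the scaffold of tight junctions, at 833 ± 83.3 CPM after Cldn11.

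Growth factor systems and transcription factors came next. Of 18 BMP and TGF-beta genes 11 were higher and 2 lower, with Bmp4 at 370 ± 54.9 CPM. Of 13 Wnt genes 10 were higher and 0 lower, led by Wnt5a at 360 ± 175 CPM. Of 10 genes of the insulin-like growth factor system 5 were higher and 2 lower: Igfbp2 was 5.35 times the other cells at 1601 ± 191 CPM, while Igfbp5 varied from 480 CPM in library 5 to 2447 in library 1. Of 22 transcription factor genes 16 were higher and 1 lower, with Ebf1 at 1249 ± 273 CPM and the mesenchymal gene Tbx18 at 397 ± 81.6 CPM, 6.68 times the other cells.

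Of 16 genes of growth factor receptors and perivascular cells 8 were higher and 0 lower, with the surface peptidase gene Dpp4 at 343 ± 60.3 CPM after Pdgfra. Of 8 complement genes 7 were higher and 0 lower, led by Clu, which encodes clusterin, at 2209 ± 125 CPM, and of 11 genes of lipid handling 6 were higher and 0 lower. Other lists were more mixed. Of 18 genes of iron and oxidative defence 4 were higher and 9 lower, and the ferritin gene Fth1 was at 0.553 times the other cells. Of 15 immediate early and dissociation genes 2 were higher and 8 lower, and of 6 genes of cell cycle inhibitors and senescence 3 were higher and 2 lower, with Cdkn1a at 14.9 ± 9.20 CPM, 0.197 times the other cells. Of 17 genes of antigen presentation and interferon response 2 were higher and 2 lower over all members.

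At a finer resolution the members fell into 6 groups, of which 2 had the leading genes and cell numbers of the small groups above. Among the other 4, interferon genes marked 1. A group of 155 cells was led by Pcolce2, Ccn2, Mfap5 and Ogn, genes of collagen processing and matrix, and had the most Ccl11, 2346 CPM, and Dcn, 11062 CPM. It drew on all libraries, with 10, 94, 19 and 32 cells. A group of 120 cells was led by Hbb-bs, a haemoglobin gene of red blood cells, Aimp1 and the myelin gene Mbp, and 106 of its cells were from library 3. A group of 122 cells was led by Acss3, Nrxn3 and the long RNA Kcnq1ot1. Hbb-bs was at 2561 CPM in the 120 cells, 288 CPM in the 155 and 473 CPM in the 122, but a UMI of it was in 39.2%, 36.1% and 50.8% of their cells, and the 44 Otor Coch cells had 2524 CPM. Mbp was at 438 CPM in the 120 cells (a UMI in 34.2%), 120 CPM in the 155 (14.8%) and 260 CPM in the 122 (21.3%). How far free RNA of blood or of glia set these groups apart was not tested.

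**Figure D4:**
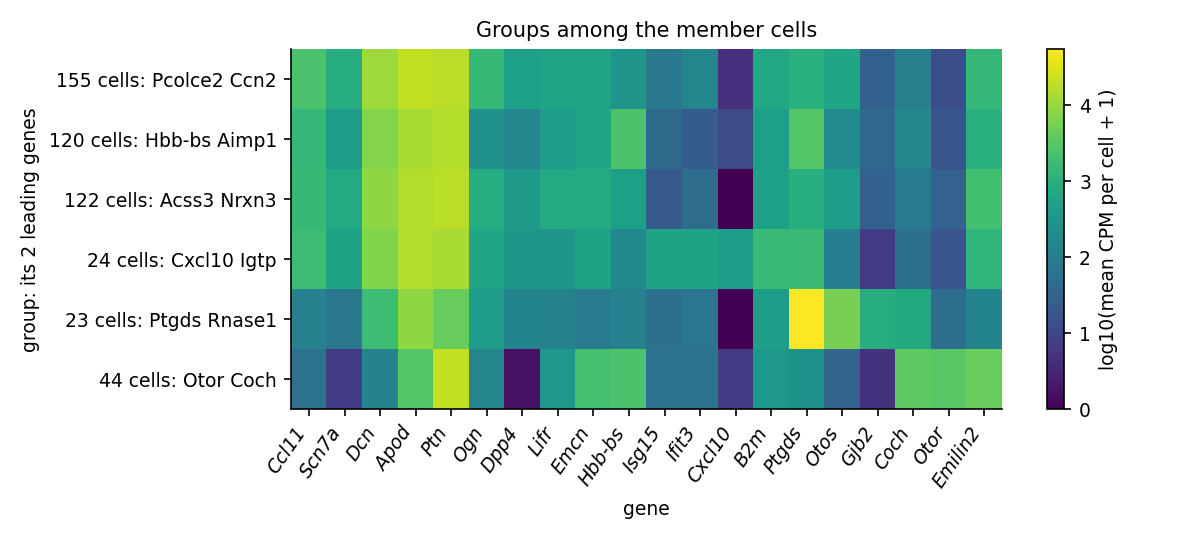
Heat map of log10 of the mean CPM per cell plus 1 for 20 genes (columns) in the 6 finer groups of members (rows, named by their number of cells and leading genes). Ccl11 and Dcn are high in the upper 4 groups and low in the lower 2, Isg15, Ifit3 and Cxcl10 are highest in the group of 24 cells, and Coch, Otor and Emilin2 are highest in the group of 44.

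The fourth group, of 24 cells, was led by genes including Cxcl10, Igtp, Gbp2 and Isg15, that interferons switch on, and all 24 cells came from library 3. In it Isg15, a ubiquitin-like protein, was at 553 CPM, and Ifit3 at 569 CPM. In the 155 cells the same genes were at 77.6 and 146 CPM. B2m and H2-K1, genes of class I antigen presentation, were at 1570 and 1232 CPM, against 727 and 401 CPM in the 155 cells, and H2-K1 shares sequence with other class I genes. Ccl11 remained high, at 1794 CPM. The myelin gene Mbp was also highest in these 24 cells, at 713 CPM with a UMI in 45.8% of them, and its part in the group was not tested.

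Because members of this group were clustered on these genes, cells were also counted by a rule chosen after the values had been seen: a UMI in 3 or more of Irf7, Ifit1, Ifit3, Isg15 and Gbp2. Of the 488 members 45 passed (9.22%), with 2, 39, 4 and 0 in libraries 1, 3, 4 and 5, where 0 of the 93 members of library 5 allows a share of up to 3.23%. A UMI of Irf7, Ifit1, Ifit3, Isg15 and Gbp2 was in 27.3%, 52.3%, 54.5%, 50% and 52.3% of the deep Otor Coch cells. In the 421 cells led by Ccl11 and Scn7a these shares were 2.61%, 9.50%, 12.1%, 11.6% and 9.74%. How many of the 45 were Otor Coch cells was not counted. Of the 942 fibrocyte-like cells 43 passed (4.56%), and of all kept cochlear cells 166 (2.28%). With each cell thinned to 1000 UMIs and 2 of the 5 genes required, the numbers of members were 1, 20, 0 and 0, and the shares were 4.30% of members, 3.08% of fibrocyte-like cells and 1.65% of all kept cells. Library 3 thus gave most of these members at both depths, and it also gave most of the members overall. In the vestibule 26 of the 132 cells that passed the marker rule had 3 or more of the genes (19.7%), 19 of them in library 3, against 1.78% of all kept vestibular cells.

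Interferon-induced genes are known for a promoter element, the interferon-stimulated response element. Its core was searched as GAAA, any 2 bases and GAAA again, on either strand, in promoters from RefSeq (GRCm38.p6), 250 bases before to 50 bases after the gene start. A promoter was found for the 7 genes looked up (Irf7, Ifit1, Ifit3, Isg15, Gbp2, Cxcl10 and Igtp), and 6 of the 7 held the letters. Of all 32851 promoters 1131 did (3.44%). A match is a description of the sequence and not a site shown to be in use. The promoters of 4 genes that led the group or were named above are shown 5′ to 3′ on the gene's strand, with the matches in capitals.

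Isg15 promoter, chr4:156200769-156201068, minus strand: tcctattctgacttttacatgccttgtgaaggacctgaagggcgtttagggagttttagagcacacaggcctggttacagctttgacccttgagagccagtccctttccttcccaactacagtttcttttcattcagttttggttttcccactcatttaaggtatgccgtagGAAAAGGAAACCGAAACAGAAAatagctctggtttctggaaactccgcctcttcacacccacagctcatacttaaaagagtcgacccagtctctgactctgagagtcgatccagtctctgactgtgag

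Ifit3 promoter, chr19:34583279-34583578, plus strand: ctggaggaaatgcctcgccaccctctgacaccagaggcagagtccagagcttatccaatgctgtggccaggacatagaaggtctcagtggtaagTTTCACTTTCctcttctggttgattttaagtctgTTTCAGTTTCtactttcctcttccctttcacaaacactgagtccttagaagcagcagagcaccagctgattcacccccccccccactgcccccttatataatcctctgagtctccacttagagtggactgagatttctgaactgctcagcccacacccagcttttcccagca

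Cxcl10 promoter, chr5:92348840-92349139, minus strand: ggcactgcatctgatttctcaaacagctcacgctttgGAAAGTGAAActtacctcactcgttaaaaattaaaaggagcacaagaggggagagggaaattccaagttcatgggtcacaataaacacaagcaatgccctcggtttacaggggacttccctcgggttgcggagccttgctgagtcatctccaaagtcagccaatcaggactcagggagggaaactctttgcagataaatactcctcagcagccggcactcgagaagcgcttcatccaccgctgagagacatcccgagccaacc

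Gbp2 promoter, chr3:142620413-142620712, plus strand: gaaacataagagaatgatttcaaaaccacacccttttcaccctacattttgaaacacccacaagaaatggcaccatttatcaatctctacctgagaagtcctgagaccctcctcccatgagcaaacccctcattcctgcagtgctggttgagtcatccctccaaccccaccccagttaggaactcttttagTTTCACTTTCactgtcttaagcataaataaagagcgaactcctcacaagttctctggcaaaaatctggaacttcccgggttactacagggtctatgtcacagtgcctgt

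In Isg15 overlapping matches lay from 78 bases before the gene start, and in Gbp2 the match began 59 bases before it. In Ifit3 the first match began 156 bases before the start and in Cxcl10 213 bases before. Irf7 held no match in this window, from which nothing follows about its regulation.

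Whether the cells differed between the organs was tested between the 4 cochlear libraries, on which the rule had been made, and the 4 vestibular ones, on which it had not, so the test is not independent of the rule's data. Cells passing the rule in the cochlea were higher than those of the vestibule in Foxf2, Otor, Cdh6 and Emcn, and lower in Rbp4, Ucma and Pcolce2, over all depths. UMIs were summed per library and tested with edgeR's quasi-likelihood test, with Benjamini-Hochberg adjustment over 3875 genes. At an adjusted p under 0.05, 57 genes were higher in the cochlea (1.47%) and 39 in the vestibule (1.01%), together 2.48%. Replicate 1 of both organs had been counted with an older version of CellRanger than replicates 3, 4 and 5, and among the latter alone, in a fit added after seeing the data, 61 genes were higher in the cochlea and 42 in the vestibule. With 1 library left out the counts were 34 to 81 and 19 to 60: they were 34 and 22 without vestibule library 3 and 36 and 22 without cochlea library 4, and the vestibular count was 19 without cochlea library 3 and 60 without cochlea library 1. With the replicate number as a block, given below with the processing, more genes passed in both directions. Of the named genes 36 kept their call with the block and 1 lost it. The p-values measure the spread between pooled libraries. The median log2 difference over all genes tested was −0.0087.

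The make-up of the cells differed between the organs as well. Of the vestibular cells that passed, 77 of 132 (58.3%) had 3 or more fibrocyte markers, against 20.9% in the cochlea, and 22 (16.7%) had over 10000 UMIs. Among cells of at most 10000 UMIs 17 of 1277 genes were higher in the cochlea (1.33%) and 9 in the vestibule (0.705%), together 2.04%. Of the 96 genes called over all depths 45 were tested there, 44 of them had the same sign and 13 were called again. One of the 17 was Ccl11, by 1.39 on the log2 scale, a rule gene whose values chose the cells, so its call is a description, as are the values of the other rule genes. None of the 6 was among the 96. Of the 6 fibrocyte markers Coch, Car3 and Otos were called in these shallower cells, not all in the same direction. Otor, Pou3f4 and Tbx18 were not among the genes called there. Coch was at 419 CPM in the cochlea against 2856 CPM in the vestibule (log2 −2.71 ± 0.49; edgeR, adjusted p = 0.0042), where over all depths its log2 was −0.019. Car3 was lower in the cochlea by a log2 of −2.73 ± 0.69 (edgeR, adjusted p = 0.047), and Otos was higher by 4.69 ± 1.11 (edgeR, adjusted p = 0.029), with 15710 CPM in cochlea library 4 against 300.2 to 383 CPM in the other cochlear libraries. With the cells of 3 or more fibrocyte markers left out, which left 386 and 55 cells, 2 genes of 520 were higher in the cochlea and 0 in the vestibule. The difference in make-up and a difference within like cells cannot be told apart for most of the 96 genes.

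Cdh6 and Emcn were called at both depths. With the cells of fibrocyte markers left out Emcn was called again, at 2.28 ± 0.44 (edgeR, adjusted p = 0.029), and Cdh6 could not be tested, nor could it with each cell thinned to 1000 UMIs. Cdh6, the gene of a cadherin of cell adhesion (chr15:13028701-13173675), stood at 330, 301, 180 and 384 CPM of summed UMIs in cochlear libraries 1, 3, 4 and 5 and at 31.0, 17.2, 10.6 and 33.6 CPM in the vestibular ones. The organs did not overlap, and the log2 difference was 3.69 ± 0.36 (SE; edgeR, adjusted p = 4.0e-05), or 3.80 ± 0.41 in cells of at most 10000 UMIs (edgeR, adjusted p = 3.5e-05). In all other kept cells Cdh6 was at 37.6 CPM in the cochlea and 1.11 CPM in the vestibule.

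Emcn (chr3:137341067-137432185) stood at 1872, 1312, 1901 and 863 CPM in the cochlea and at 124, 134, 95.4 and 213 CPM in the vestibule, again without overlap. Its log2 difference was 3.36 ± 0.34 (edgeR, adjusted p = 4.0e-05) and 2.36 ± 0.31 in cells of at most 10000 UMIs (edgeR, adjusted p = 0.00023). Other kept cells had 422 CPM in the cochlea and 3.28 CPM in the vestibule, so the gene differed between the organs outside these cells too. Free RNA of those cells was not tested as a source.

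Among transcription factor genes Foxf2, of mesenchyme and vessel walls (chr13:31625816-31631403), had 94.2, 66.5, 122 and 53.3 CPM in the cochlea and 0 UMIs in all vestibular libraries, which is at least 24.2-fold higher against a floor of 3 counts over the vestibular group (edgeR, adjusted p = 0.00054). In cells of at most 10000 UMIs it had 75.0, 31.7, 0 and 39.3 CPM in cochlear libraries 1, 3, 4 and 5 and 0 in the vestibule, so that library 4 met the vestibular level, and it was not tested there. All other kept cells had 17.4 CPM of Foxf2 in the cochlea and 0.0915 CPM in the vestibule. Tbx1, a T-box gene of the developing ear, was higher by a log2 of 2.95 ± 0.42 (edgeR, adjusted p = 0.00069). Otor, the fibrocyte gene, had 447, 1790, 2890 and 206 CPM against 23.3, 40.9, 148 and 11.2 CPM, a log2 difference of 4.82 ± 0.80 over all depths (edgeR, adjusted p = 0.0023). In cells of at most 10000 UMIs it was 0.64 ± 0.44 with an adjusted p of 0.63 by edgeR. Anks1b, Rarres1, Rgs7bp, Syt1 and Car2 completed the 10 largest, with log2 differences from 2.83 to 5.06. Of the 10 genes 3 could be tested in the shallower cells, Cdh6, Emcn and Otor, and the first 2 were called. The cochlear mean of Anks1b was 202 CPM over all depths and 8.04 CPM in the shallower cells, that of Rgs7bp 196 and 35.2 CPM, of Syt1 113 and 23.1 CPM, of Rarres1 60.3 and 12.3 CPM and of Car2 150 and 70.4 CPM. All 5 means were thus lower in the shallower cells. Rarres1 was also at 27.4 CPM in other cochlear cells and 0.224 CPM in other vestibular cells, and the log2 difference of Syt1, 3.19, was 5.44 without vestibule library 3.

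In the vestibular cells Rbp4, the carrier of retinol in blood (chr19:38116629-38125281), had 171, 528, 191 and 174 CPM against 0, 23.6, 0 and 0 CPM in the cochlea. It was lower in the cochlea by a log2 of −4.43 ± 0.61 (edgeR, adjusted p = 0.00056). Its cochlear counts all came from library 3, and without that library the cochlea was at 0 and the fitted value, then no measure of size, was −9.02. Without vestibule library 3 it was −3.68. Other kept cells of the vestibule had 317 CPM of Rbp4 against 2.40 CPM in the cochlea, and macrophage-like cells had 59.9 against 2.84 CPM. Ptgds differed in the same way, by −2.42 ± 0.57 (edgeR, adjusted p = 0.030), with 41187 CPM in other vestibular cells against 5078 CPM in other cochlear cells. In cells of at most 10000 UMIs Rbp4 was called again and Ptgds was not, at −1.91 ± 0.71 (edgeR, adjusted p = 0.24). With the cells of 3 or more fibrocyte markers left out, Ptgds had the other sign, 1.16 (edgeR, adjusted p = 0.87), and with 1 library left out its call was lost in 5 of 8 fits, at most to an adjusted p of 0.12 by edgeR without vestibule library 3. Ucma, a cartilage matrix gene, was at 856 CPM in other vestibular cells and 37.3 CPM in other cochlear cells. Srgn, the proteoglycan gene of blood cell granules, was at 278 and 74.9 CPM in other cells of the vestibule and the cochlea, and at 334 and 414 CPM in macrophage-like cells. The levels of Rbp4, Ptgds, Ucma and Srgn were thus also higher in other vestibular cells, and the part of free RNA was not tested.

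Pcolce2 and Nppc were low in the other cells of both organs. Pcolce2, which enhances the processing of procollagen, had 279, 194, 604 and 185 CPM in vestibular libraries against 141, 43.0, 30.5 and 56.9 CPM, and other cells had 11.2 and 23.1 CPM. Its log2 difference was −2.49 ± 0.44 (edgeR, adjusted p = 0.0034), and −2.01 ± 0.39 in cells of at most 10000 UMIs (edgeR, adjusted p = 0.0079). Nppc, the gene of C-type natriuretic peptide, had 171, 161, 201 and 218 CPM against 35.3, 24.1, 27.9 and 85.3 CPM, and −1.51 ± 0.33 on the log2 scale in the shallower cells (edgeR, adjusted p = 0.022). Other cells had 2.34 CPM in the vestibule and 3.16 CPM in the cochlea. Gm20125, Gap43, Fyb, Srgn and Fbln5 made up the 10, of which 6 could be tested in the shallower cells and 5 were called, all but Ptgds.

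**Figure D5:**
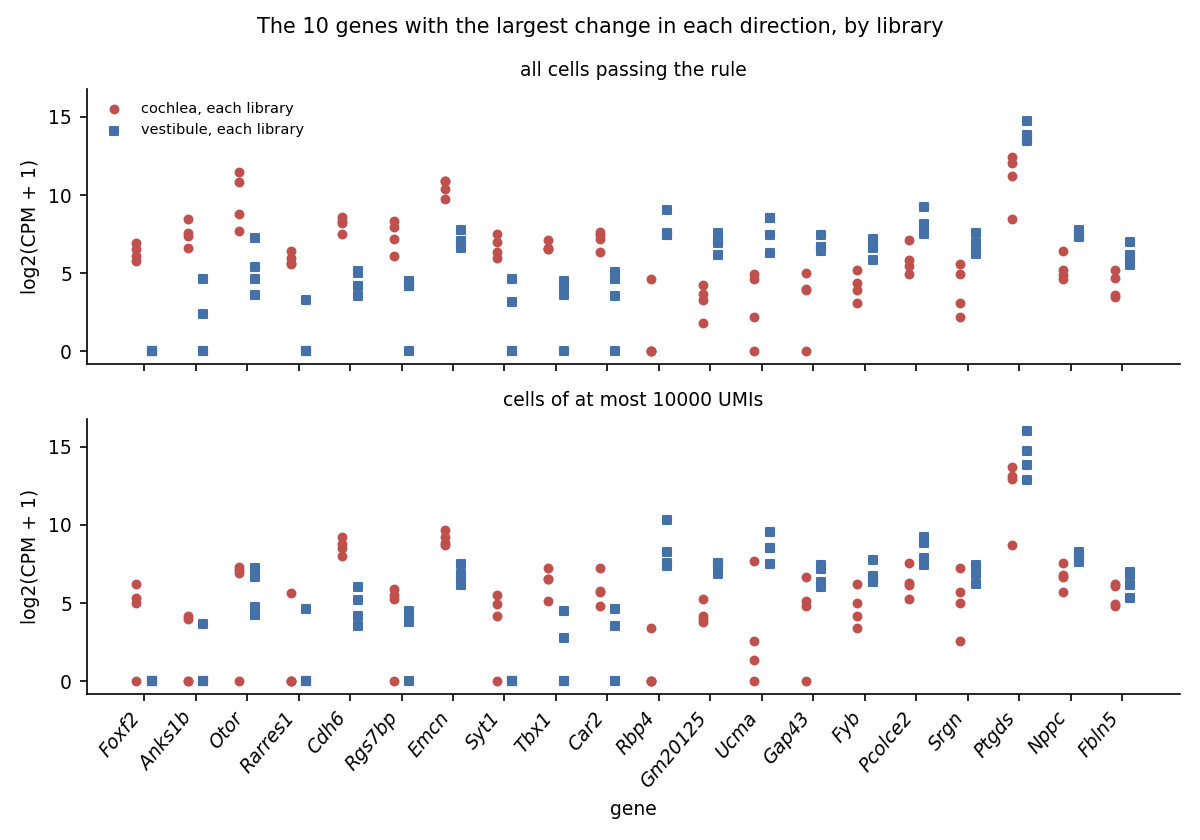
log2 of CPM plus 1 in each library (red points, cochlea; blue squares, vestibule) for the 10 genes with the largest change in each direction, over all cells that passed the rule (top) and over those of at most 10000 UMIs (bottom). Cdh6 and Emcn are apart in both, while the libraries of Otor overlap in the bottom panel.

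By role, at most 3 genes of each list passed this test, where 1.47% of all genes tested were called higher in the cochlea, 1.01% in the vestibule and 2.48% in either. With lists this short, 1 gene called is a larger share than that, and nothing particular to a list is read from it. The chemokine, retinoid, sodium channel and junction lists each hold a rule gene. Of 5 chemokine and cytokine genes tested 2 were higher in the cochlea, Cx3cl1 by 1.67 ± 0.36 and Cxcl13 by 2.27 ± 0.44 on the log2 scale, and the list's median was 0.32. Cx3cl1 lost its call in 3 of 8 fits with 1 library left out (edgeR, adjusted p up to 0.082, without vestibule library 3). Of 11 Wnt genes Fzd1 and the Wnt inhibitor gene Notum were higher in the cochlea, with a median of 0.36, and of 5 receptor genes Lifr was, by 1.42 ± 0.24 (edgeR, adjusted p = 0.0029), with a median of 0.50. Lifr was at 530, 380, 310 and 437 CPM in the cochlea against 163, 144, 148 and 151 CPM, and in the shallower cells its difference was 1.85 ± 0.25 (edgeR, adjusted p = 0.00023).

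Of 15 matrix protein genes Fbln5, Fbn1 and Mfap5 were higher in the vestibule over all depths and 0 in the cochlea (median −0.17), as was Col18a1 of 5 collagen genes (median −0.24). In cells of at most 10000 UMIs 9 of these matrix protein genes could be tested: 0 were higher in the vestibule, and Efemp1 was higher in the cochlea by 1.22 ± 0.25 (edgeR, adjusted p = 0.010). Mfap5 was at −0.83 ± 0.38 there (edgeR, adjusted p = 0.37), and Fbln5, Fbn1 and Col18a1 could not be tested. Their mean levels there were 49.7 CPM in the cochlea against 87.2 CPM in the vestibule for Fbln5, 62.3 against 117 CPM for Fbn1 and 62.8 against 132 CPM for Col18a1. With 1 library left out, Fbn1 lost its call in 5 of 8 fits, Mfap5 and Col18a1 in 4 of 8 and Fbln5 in 1 of 7, with adjusted p by edgeR of up to 0.12, 0.11, 0.082 and 0.12. Of 11 protease and inhibitor genes Serpine2 was higher in the cochlea, and Adamts1 and Pcolce2 in the vestibule (median −0.0095). Of 9 retinoid genes Rbp4 and Crabp2 were higher in the vestibule (median −0.87). Of 18 transcription factor genes Foxf2 was higher in the cochlea and Osr2 in the vestibule (median 0.37), and of 10 growth factor receptor and perivascular genes Fgfr2 in the cochlea and Angptl1 and Ntrk2 in the vestibule (median −0.080).

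Of 8 sodium channel and pump genes Atp1b1 was higher in the cochlea (median −0.18), by a log2 of 2.59, or 1.71 without cochlea library 1. Cdh5 of 8 junction genes (median −0.38), Slc13a4 of 6 transporter genes (median −0.13) and Ptgds of 8 lipid genes (median −0.053), whose sign was not stable, were higher in the vestibule. Several of these calls were lost in cells of at most 10000 UMIs, where the adjusted p by edgeR was 0.91 for Crabp2, 0.46 for Osr2, 0.54 for Ntrk2, 0.38 for Cdh5, 0.15 for Slc13a4, 0.11 for Serpine2 and 0.24 for Ptgds. Fgfr2, which could not be tested there, had means of 206 CPM in the cochlea and 68.7 CPM in the vestibule over all depths but 51.3 and 78.4 CPM in the shallower cells, the other order. Lifr, Pcolce2 and Rbp4 were called at both depths, and apart from Mfap5, given above, the remaining genes named for their lists could not be tested in the shallower cells. Over all depths but with 1 library left out, calls were lost for Crabp2 in 7 of 8 fits (edgeR, adjusted p up to 0.26, without vestibule library 3), Slc13a4 in 6 of 8 (0.13), Adamts1 in 6 of 7 (0.27, without cochlea library 3), Cdh5 (0.13) and Fgfr2 (0.20) in 5 of 8, Ntrk2 in 4 of 8 (0.090), Atp1b1 in 3 of 8 (0.075) and Angptl1 in 2 of 8 (0.069). Over all depths no gene passed among 14 of BMP and TGF-beta (median 0.23), 8 of insulin-like growth factors (median −0.40), 2 of complement (median −0.27), 16 of iron and oxidative defence (median −0.20), 11 of antigen presentation and interferon response (median −0.58), 2 of cell cycle inhibitors (median −0.42) and 10 immediate early genes (median 0.86). In cells of at most 10000 UMIs, where the median of all genes was −0.023, several medians had the other sign. That of the immediate early genes was −0.53 there, of Wnt genes −0.16, of matrix proteins 0.48, of collagens 0.14, of proteases and inhibitors 0.31 and of growth factor receptors 0.65, and those of junction, lipid and iron genes were just above 0. The medians of the retinoid, antigen presentation and complement lists stayed below 0, at −0.16, −0.21 and −0.11.

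Macrophage-like cells of the same libraries served as another cell type for the contrast of the organs. Among their 1636 genes 0 were called by edgeR's quasi-likelihood test at an adjusted p under 0.05 (0%), 96 had an unadjusted p under 0.05, and DESeq2 called 0. The difference between the classes was tested in edgeR as an interaction, with library as a term. It called 3 of 3390 genes (0.0885%). With 1 library left out the organs' difference was called larger in members for 1 to 12 genes and smaller for 1 to 18. Car2, a carbonic anhydrase gene, had a cochlea minus vestibule difference larger in members by a log2 of 5.90 ± 0.80 (edgeR, adjusted p = 0.0018), since it was at 150 against 16.5 CPM in the members and at 17.7 against 183 CPM in macrophage-like cells. Slc25a37, a mitochondrial iron carrier gene of red cells, followed at 3.85 ± 0.61 (edgeR, adjusted p = 0.0073). It was at 35.1 against 11.9 CPM in members, where the libraries overlapped and the organs' contrast was not tested. In macrophage-like cells it was at 30.3 against 144 CPM, a log2 of −2.30 that was not called (edgeR, adjusted p = 0.37). Cnmd, a cartilage gene, was called at an adjusted p of 0.022 by edgeR, with macrophage-like cells of the vestibule at 0.

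In cells of at most 10000 UMIs this difference was called for 3 of 1921 genes (0.156%). Apod was at 16937 CPM of summed UMIs in cochlear members and 9518 CPM in the vestibule, and within members the organs' difference of 0.86 ± 0.28 on the log2 scale was not called (edgeR, adjusted p = 0.18). Macrophage-like cells over all depths had 110 and 572 CPM. The difference of the contrasts was 2.87 ± 0.60 on the log2 scale (edgeR, adjusted p = 0.031). Over all depths that of Apod was 2.50 and was not called (edgeR, adjusted p = 0.37). Tgfbi, a matrix gene induced by TGF-beta, had 275 against 80.7 CPM in members and a difference of 2.44 ± 0.45 (edgeR, adjusted p = 0.015). Over all depths Tgfbi had 161 against 124 CPM in members and its difference was 0.69, which was not called (edgeR, adjusted p = 0.86). Nr2f1 was called at an adjusted p of 0.031 by edgeR, with macrophage-like cells of the vestibule at 0. Over all depths it was not called (edgeR, adjusted p = 0.14).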

How the data were processed

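Droplet libraries of the cochlea and vestibule of old CBA/J mice were analysed, 5 per organ. The authors deposited raw UMI counts per gene and barcode, made with CellRanger and mm10, for barcodes called as cells. The file headers name version 5.0.1 for 4 libraries and 6.1.2 for 6, and the processing notes name 6.1.2. The versions fall alike on both organs.

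A barcode was kept from 200 genes and 1000 UMIs upwards if under 25% of its UMIs were mitochondrial. Doublets were not removed. The rule for members, the gene lists and the classes were chosen with earlier results of these data known. Levels are the mean CPM per cell and library, with the SD of 4 libraries; CPM of summed UMIs, the measure first planned, is the alternative, because few deep cells hold most UMIs. A floor of 3 counts stood for a group at 0. Ccl19, whose symbol occurs more than once, was left out.

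UMIs were summed per library with at least 5 cells and tested in edgeR 4.0.16 (R 4.3.3; limma 3.58.1) by quasi-likelihood, with TMM factors and edgeR's filter on low counts. P-values were adjusted after Benjamini-Hochberg, with 0.05 as the threshold. DESeq2 1.42.0 was an alternative. In simulated counts with 200 genes changed by a log2 of 2 the test between organs called 99.4% of the 165 that were tested, with 2.96% of calls false, that of macrophage-like cells 94.7% of 150 (4.05%), and that of the class difference 37.1% of 151 (3.45%). These counts were drawn from the pooled mean of each gene, without the mix of cell groups and depths among the members. The shares therefore do not cover calls that a difference in make-up between the organs would give. Genes named in the organ test were the 10 largest in each direction among those called without overlap of libraries, without the rule's genes. From each list the up to 4 most abundant genes and those called were named, with the 20 largest folds over other cells, but values of a few such genes are not reported here. Genes singled out otherwise, such as those called among cells of at most 10000 UMIs, were chosen after their values were seen.

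Members were grouped in scanpy 1.11.5 (1000 variable genes, 15 components, 15 neighbours, Leiden resolutions 0.3 and 0.6). Positions are of GENCODE M21 on GRCm38.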

Additional observations from a re-analysis of the deposited data

Results flagged for a closer look

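Among 61 groups of 4 libraries, 6 had a library far from the others, where chance gives about 5% of groups. Scn7a in cochlear members was high in library 1, at 1022 CPM against a median of 561 in the others. Ifitm1 was low in library 5, at 1666 CPM against 1997. Of the summed levels of organ genes, Tbx1 was high in cochlea library 4 (137 against 94.2 CPM), Rarres1 in vestibule library 3 (8.61 against 0), and Rbp4 in cochlea library 3 (23.6 against 0) and in vestibule library 3 (528 against 174).

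The contrast of the organs differed between members and macrophage-like cells, in edgeR's test of the interaction, for Car2 (log2 5.90), Slc25a37 (3.85) and Cnmd (−8.92). Among cells of at most 10000 UMIs it did for Tgfbi (2.44), Apod (2.87) and Nr2f1 (−5.97). Cnmd and Nr2f1 were at 0 in vestibular macrophage-like cells, so their fitted values depend on the prior count and give no size. Over all depths the difference of Tgfbi was 0.69 and was not called (edgeR, adjusted p = 0.86). Neither was that of Apod, at 2.50 (edgeR, adjusted p = 0.37), or of Nr2f1 (edgeR, adjusted p = 0.14).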

How the results depend on the processing

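The number of members, 488, was 816 with 2 of 6 markers needed, 253 with 4, 215 with at least 2000 UMIs per cell, and 147 to 468 with 1 library left out, lowest without library 3. The 57 genes higher in the cochlea and 39 in the vestibule became 240 and 250 with 2 markers, 23 and 22 with 4, 28 and 20 without cells carrying markers of other types, 172 and 221 with no filter on low counts, and 4 and 1 with each cell thinned to 1000 UMIs, where 351 genes were tested. With at least 2000 UMIs, 62 were higher in the vestibule. Chosen after seeing the data, cells of at most 10000 UMIs gave 17 and 9 and leaving out cells with fibrocyte markers 2 and 0, where Ptgds turned to a log2 of 1.16 (edgeR, adjusted p = 0.87). With 1 library left out the counts were 34 to 81 and 19 to 60: the vestibular count was 19 without cochlea library 3 and 60 without cochlea library 1, and both fell to 36 and 22 without cochlea library 4 and to 34 and 22 without vestibule library 3.

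With the replicate number as a block 84 and 69 genes passed. The numbers 1, 3, 4 and 5 had correlations of deviations of 0.268, 0.101, 0.0751 and 0.202, 3 of 4 over 0.1. Among the vestibular libraries each cochlear library matched that of its own number best. Vestibular libraries were not matched in turn. Apart from the CellRanger version, which number 1 has to itself, the sources used here do not say what a number shares between the organs. The main test therefore did not treat the libraries as paired, and whether they are was not settled. The class difference, 2 genes higher and 1 lower in members, became 1 and 0 without the library term, 20 and 39 without the filter, and 1 to 12 and 1 to 18 with 1 library left out, from 12 and 6 without cochlea library 3 and 6 and 18 without cochlea library 5 to 1 and 2 without vestibule library 3. Where it could be tested, the log2 of named genes kept its direction and call in 715 values, lost the call in 121 and reversed in 1. The alternatives that drop the most UMIs add few values to this count: of 37 genes, cells of at most 10000 UMIs tested 16 and kept 7, cells without fibrocyte markers tested 5 and kept 1, and thinned cells tested 3 and kept 1. Of the levels 90 moved by less than 1 SD and 14 by more.

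Depth limits these results: 20 members in library 1 and 19 cells in vestibule library 1 make single low genes imprecise. The free RNA of each library was not measured apart from the cells.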

Other observations

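In the vestibule, 482 cells had just 2 of the 6 markers, and these were mostly Ranbp3l (a UMI in 89.2%) and Aldh1a2 (81.7%), while Ccl11 was in 2.90% of them. Of these cells 394 had 3 or more fibrocyte markers, and Coch was at 16500 CPM. Of the 328 cochlear cells with 2 markers, Ccl11 was in 50.6%, Ranbp3l in 18.0% and Coch stood at 1118 CPM. Of all Aldh1a2 UMIs of the vestibule, 1168 of 1867 lay in fibrocyte-like cells and 366 in cells that passed the rule, whereas Ccl11 had 515 of its 595 UMIs in cells that passed it.

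Cxcl13 and Cx3cl1 were carried by fibrocyte-like cells as well as members in the cochlea. Of 1612 Cxcl13 UMIs 368 were in members, 592 in fibrocyte-like cells and 312 in macrophage-like cells. Of 1263 Cx3cl1 UMIs the same classes held 297, 450 and 7.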
